A study of Mus musculus with 10 samples.

Results

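The deposited PRDM14 peak list held 3608 peaks, of which 347 were both tall and isolated from other listed peaks. They were chosen by measured values of this list: a height of 200 reads or more, where the height is the highest pileup of immunoprecipitated reads inside the interval, and no other peak position within 10 kb on the same chromosome. They were 11.5% of the 3025 ungrouped peaks (95% Wilson interval 10.4% to 12.7%). The other 2678 ungrouped peaks, with heights of 51 to 199 reads, served as the comparison and are called lower ungrouped peaks. No ungrouped peak was under 51 reads, so isolation and distances here refer to listed peaks alone. The rule used the heights and positions of this 1 library, and width, summit and spacing come from the same library. The authors' enrichment uses it too, as a ratio over a control. All differences are therefore descriptions without a test. The 95% intervals account for counting error alone, as if each peak were independent of its neighbours.

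The peaks came from a chromatin immunoprecipitation with sequencing (ChIP-seq) of mouse embryonic stem (ES) cells of strain C57BL/6. These cells were Prdm14-/- and carried a rescue construct, AVI-EGFP-Prdm14, and the antibody was directed against GFP, so the tagged protein was the target, in cells without the endogenous gene. No source used here gives the promoter of the rescue construct, its level against endogenous PRDM14 or the number of clones. The series also comprised the input of these cells, a GFP immunoprecipitation and an input of Prdm14-/- cells rescued by EGFP without PRDM14, and 3 libraries each (against H3K27me3, against SUZ12, and input) of Prdm14+/+ and of unrescued Prdm14-/- cells. Of the 10 libraries, each the only one of its group, the other 9 were not analysed here, so the signal that a GFP antibody gives without PRDM14 was not set against these peaks here. Which control the authors' enrichment used is not stated in these sources. The total read number of the immunoprecipitated library is likewise not known from them.

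PRDM14 is a zinc finger protein with a PR domain. It binds DNA through its zinc fingers, is found in pluripotent cells and primordial germ cells, and is known in mouse ES cells for holding down fibroblast growth factor receptor signalling and de novo DNA methyltransferases, in part together with Polycomb repressive complex 2. In a ChIP-seq peak, the summit is the position of the highest pileup. The interval around it depends on the length of the sequenced fragments, on how far the pileup stays above the caller's limit, and on whether sites nearby add to it.

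Among all 3608 peaks, 446 reached 200 reads, and 77.8% of these (95% Wilson interval 73.7% to 81.4%) were ungrouped. The other 99 tall peaks had a neighbour within 10 kb. Tall peaks made up 17.0% of the 583 grouped peaks (14.2% to 20.2%), against the 11.5% among ungrouped ones. The tallest peak of the whole list, at 1226 reads on chromosome 1, was a grouped one, with its nearest peak 3300 bp away. Of the 10 tallest peaks of the list, 8 were ungrouped, and of the 100 tallest, 71 were.

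Heights of the 347 tall ungrouped peaks were concentrated just above the limit. The median was 291 reads, the quartiles were 233 and 413.5 reads, and the highest value was 1155 reads. The range of 200 to 249 reads held 126 of them. Heights of 300 or more were reached by 164 peaks, of 600 or more by 39, and of 1000 or more by 8. At the limit itself, 4 peaks had 200 reads and 2 had 201, while 5 ungrouped peaks had 199 reads and 4 had 198. The 6 peaks just inside had widths from 919 to 1379 bp and enrichments from 46.2 to 247.7. The 9 just outside had widths from 849 to 1149 bp and enrichments from 24.2 to 159.1, so the ranges on both sides of the limit overlapped.

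The tallest of these peaks are described by position on mm9. The peak with the greatest height lay on chromosome 8 at 93374980 to 93376469, with 1155 reads, a width of 1489 bp and an enrichment of 567.2. The enrichment is the authors' ratio over a control and is used here only within the list. On chromosome 5 at 127235010 to 127236309, a peak of 1131 reads had nearly the same height but an enrichment of 148.02, which was rank 170 of the 347. Its interval of 1299 bp was also among the 5 narrowest for their height. In contrast, the peak on chromosome 6 at 70913550 to 70916249, with 1109 reads, was the widest of all 347, at 2699 bp, and had the highest enrichment, 830.3.

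Chromosome 5 held 3 of the 10 tallest peaks. Besides the one at 127235010, these were a peak at 53857560 to 53859169 with 1062 reads and a peak at 119504880 to 119506469 with 1050 reads. Their enrichments were 162.0 and 247.4. Chromosome 2 held another 2. One, at 24767340 to 24768649, reached 1107 reads with an enrichment of 357.0, and the other, at 28462230 to 28463769, reached 1002 reads with an enrichment of 268.6. Of the remaining 3, the peak on chromosome 4 at 137561370 to 137562609 had 1045 reads, a width of 1239 bp and an enrichment of 147.1. A second peak of chromosome 8, at 26623450 to 26625109, had 991 reads and an enrichment of 191.5. The last, on chromosome 15 at 75719690 to 75721729, had 871 reads, a width of 2039 bp and an enrichment of 197.2. It was also the most crowded of the 10, with another peak 12.81 kb away, whereas the peak at 53857560 on chromosome 5 had none within 793.62 kb.

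Height and enrichment ranked these peaks differently, and only 2 of the 10 tallest were among the 10 most enriched of the 347. These were the peaks at 93374980 on chromosome 8 and at 70913550 on chromosome 6. After the 830.3 of the latter, the highest enrichments were 736.9 on chromosome 1 at 90565000 to 90566599 (734 reads), 663.04 on chromosome 14 at 49774780 to 49775979 (557 reads) and 631.05 on chromosome 11 at 71315230 to 71316529 (486 reads). The fifth was 579.9 on chromosome 2 at 127539890 to 127541139 (584 reads). Across the 347 peaks, Spearman's rho between height and enrichment was 0.43, and across lower ungrouped peaks it was 0.52. Both use the immunoprecipitated reads of 1 library, so height and enrichment are not independent measurements, and the peaks are not replicates. The enrichment also depends on its control.

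**Figure D1:**
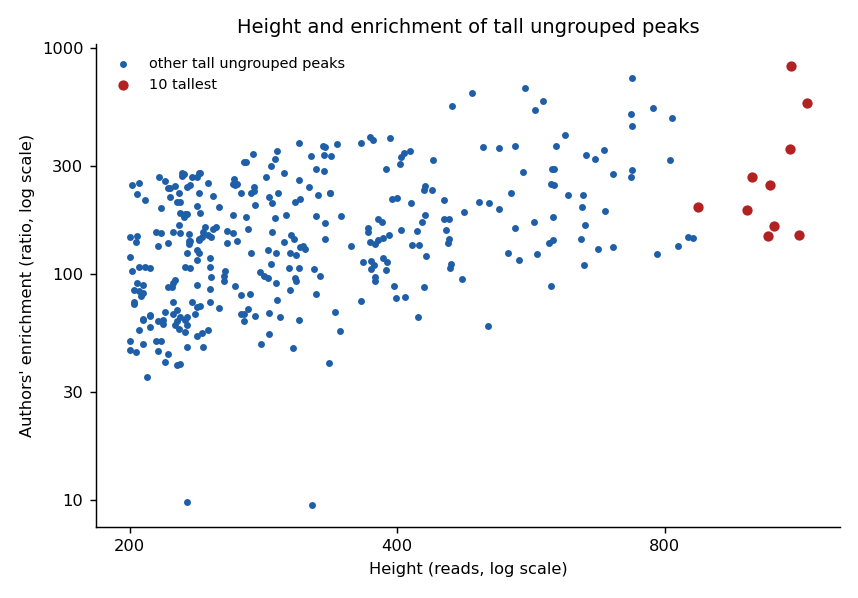
Height (x axis, reads, log scale) and the authors' enrichment (y axis, ratio, log scale) of each of the 347 tall ungrouped peaks, with the 10 tallest in red. The 10 tallest spread from an enrichment of 147.1 to 830.3, and 2 peaks sit near an enrichment of 10, far under the others.

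The enrichment grew less than the height did. The median enrichment was 144.8 in the tall ungrouped peaks (quartiles 91.2 and 230.9) and 50.0 in the lower ungrouped ones (30.6 and 74.2). Per read of height, however, the median enrichment was 0.42 in the former and 0.59 in the latter. It ran from 0.61 at 51 to 59 reads and 0.56 at 150 to 199 reads to 0.48 at 200 to 249 reads, 0.53 at 250 to 299 reads, 0.41 at 300 to 399 reads, 0.39 at 400 to 599 reads and 0.34 at 600 reads or more. The fall was thus not steady, since the value at 250 to 299 reads was above that of the range before it. These medians of height ranges are given without intervals. Height is both the divisor here and the value the rule used, so a lower ratio in taller peaks is not a separate finding. An enrichment equal to the height times the highest ratio of enrichment to height on the same chromosome occurred in 12 of the 347 peaks (3.46%, 95% Wilson interval 1.99% to 5.95%), the tallest of them with 486 reads. Among lower ungrouped peaks it occurred in 6.91% (6.01% to 7.93%). Among the 39 peaks of 600 reads or more it occurred in 0, which allows a share of up to 7.69%, taken as 3 counts over the 39 peaks. The highest ratio was taken from the peaks of this same list, so some peak of each chromosome equals it by construction. These shares are therefore not a separate finding.

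At the lower end, 16 of the 347 peaks (4.61%) had an enrichment under 50, against 50.04% of lower ungrouped peaks. The lowest value, 9.50, belonged to a peak of 321 reads and only 349 bp on chromosome 9 at 3027050 to 3027399. The next, 9.82, belonged to a peak of 232 reads and 579 bp on chromosome 3 at 8245750 to 8246329. These were also the 2 narrowest of the 347 for their height. The other 3 of the lowest 5 had enrichments of 34.8, 39.5 and 39.8, at heights of 209, 226 and 228 reads on chromosomes 5, 6 and 12. Reads of the control at these places were not analysed here.

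Tall ungrouped peaks were wider than lower ones, but their width rose less steeply with height, and this flattening began under 200 reads. The median width was 1169 bp (quartiles 1039 and 1344 bp) against 779 bp (689 and 909 bp). A width under 1000 bp was found in 56 of the 347 (16.1%, 95% Wilson interval 12.6% to 20.4%) and in 87.2% of the lower ones (85.9% to 88.4%). A width over 1500 bp was found in 48 (13.8%, 10.6% to 17.9%) and in 16 of the 2678 lower ones (0.597%). Width and height come from the same pileup, so a taller peak and a wider peak are not separate measurements.

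Each doubling of height went with a 1.19-fold greater width in the tall ungrouped peaks and a 1.33-fold greater width in the lower ones. The slopes of log2 width on log2 height were 0.25 (SE 0.02) and 0.41 (SE 0.01), and Spearman's rho was 0.53 across the 347 and 0.85 across the 2678 peaks, which share 1 library and are not replicates. Median widths were 639 bp at 51 to 59 reads, 919 bp at 100 to 149 reads and 1009 bp at 150 to 199 reads. They went on to 1059 bp at 200 to 249 reads, 1184 bp at 300 to 399 reads, 1299 bp at 400 to 599 reads and 1469 bp from 600 reads up. With the limit at 150 reads, the slope was 0.25 in the peaks above it and 0.45 in those below. The shallower slope was thus not particular to peaks of 200 reads or more, and a straight line through all lower peaks does not follow this bend. When the line of the lower peaks was extended upward, 281 of the 347 tall peaks lay under it, with a median of 0.85 of the extended width. Of the 39 peaks of 600 reads or more, 34 lay under it, at a median of 0.72. The 99 grouped tall peaks had a median width of 1209 bp at a median height of 305 reads, close to the 1169 bp at 291 reads of the ungrouped ones. Their median enrichment was higher, 196.9 (binomial interval of the median 160.5 to 215.02) against 144.8 (137.2 to 155.4).

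**Figure D2:**
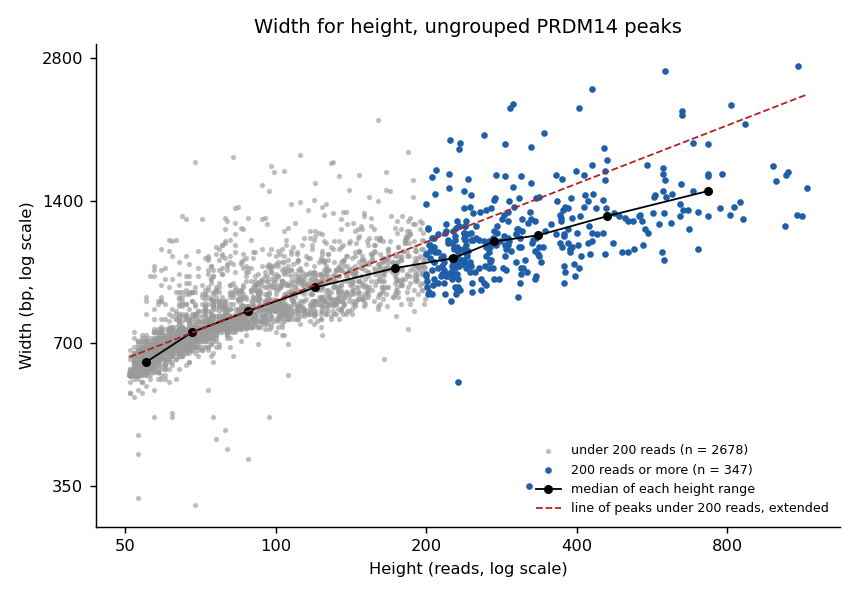
Width (y axis, bp) against height (x axis, reads), both on log scales, for ungrouped peaks under 200 reads (grey) and of 200 reads or more (blue). Black points are medians of 10 height ranges and the dashed red line is the least-squares line of the peaks under 200 reads; the median of the peaks of 600 reads or more is 1469 bp, under that line.

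The width of each peak was also set against its height. A single line through all 3025 ungrouped peaks was used to set a width for each height. Of the tall peaks, 271 were between 0.8 and 1.2 times this width, 42 were narrower and 34 were wider. Of the 2678 lower peaks, 2427 were between these limits, 23 were narrower and 228 were wider. Of the 10 tallest peaks, 8 were under this line. Many tall peaks of lesser height were under it as well, so a place under the line was not particular to the tallest.

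The 5 peaks widest for their height had an extended arm on 1 side of the summit. On chromosome 1 at 62782960 to 62785199, a peak of 298 reads spanned 2239 bp, 1.83 times the width set by the line. Its summit was 434 bp from the nearer end and 1805 bp from the farther one. The peak on chromosome 3 at 11210950 to 11213149, with 294 reads and 2199 bp, was at 1.81 times the line, with arms of 624 and 1575 bp. On chromosome 14 at 122073500 to 122075909, a peak of 429 reads and 2409 bp was at 1.74 times the line. Its arms measured 444 and 1965 bp. The peak on chromosome 7 at 56602310 to 56604939, with 601 reads and 2629 bp, was at 1.70 times the line, with arms of 434 and 2195 bp. The fifth, on chromosome 5 at 149360520 to 149362399, had 223 reads, 1879 bp and a ratio of 1.69, with arms of 515 and 1364 bp.

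In these 5 the shorter arm was within the span found in the other peaks. Over all 347, the shorter arm had a median of 484 bp (quartiles 415 and 554 bp) and the longer arm one of 694 bp (604.5 and 825 bp). In the 34 peaks over 1.2 times the line, the medians were 614 and 1094.5 bp, and in the other 313 they were 475 and 674 bp. The median ratio of longer to shorter arm was 1.95 in the 34 and 1.39 in the 313. At the median, both arms were thus longer in the 34. Since the 34 were picked by width, this describes where their extra width lay and is not a separate finding. Over the 347, Spearman's rho between width for height and the relative distance of the summit from the midpoint was 0.10. Among the peaks narrowest for their height, after those of 349 and 579 bp on chromosomes 9 and 3, at 0.28 and 0.52 times the line, came the peaks at 137561370 on chromosome 4 (0.66) and at 127235010 on chromosome 5 (0.68), both among the 10 tallest. A peak of 599 reads and 1049 bp on chromosome 18 at 80201560 to 80202609 (0.68) was the fifth.

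Summits lay near the middle of the interval in most of the tall ungrouped peaks. Measured from the start, the median position was 0.50 of the width (quartiles 0.42 and 0.59), and 171 summits were left and 176 right of the midpoint. The distance from the midpoint had a median of 99.5 bp (quartiles 54.5 and 175 bp), against 74.5 bp (30.5 and 124.5 bp) in the lower peaks. As a share of the width it was 8.53% (binomial interval of the median 7.42% to 9.71%), against 9.04% (8.66% to 9.41%).

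Most tall peaks had the summit in the central part of the interval. It was between 33.3% and 66.7% of the width in 287 of the 347 (82.7%, 95% Wilson interval 78.4% to 86.3%) and in 77.7% of the lower peaks (76.1% to 79.2%). It was closer to an end than 25% of the width in 9 of the 347 (2.59%, 1.37% to 4.86%) and in 234 of the lower ones (8.74%, 7.73% to 9.87%). The ungrouped peaks of 150 to 199 reads, just under the limit, had a share like that of the tall ones, 7 of 249 (2.81%, 1.37% to 5.69%). Among the 99 grouped tall peaks it was 0 (Wilson interval up to 3.74%). The median distance from the midpoint was 7.46% of the width (6.50% to 8.29%) in the former and 9.02% (7.34% to 10.9%) in the latter. Within the 347, height and centring were nearly unrelated: Spearman's rho between height and the relative distance from the midpoint was -0.002, as a description. All summits are given on a grid of 10 bp, which limits the precision of each position.

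The 5 most off-centre summits were of different kinds. On chromosome 6 at 131331700 to 131332669, a peak of 221 reads had its summit 14 bp from the end of a 969 bp interval. The nearest other peak was 2018.26 kb away. On chromosome 16 at 42781630 to 42782779, a peak of 281 reads had its summit 105 bp from the start of 1149 bp. Their widths were 0.88 and 0.96 times the line, and their enrichments were 44.2 and 48.8. The other 3 were the wide peaks on chromosomes 7, 14 and 1 described above.

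**Figure D3:**
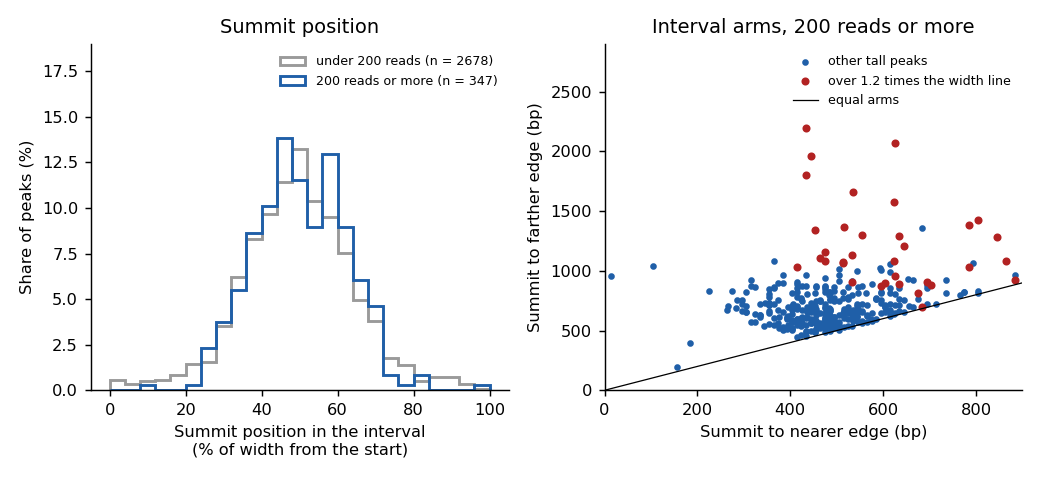
Left, share of peaks (y axis, %) by the position of the summit in the interval (x axis, % of the width from the start) for 347 tall ungrouped peaks (blue) and 2678 lower ones (grey). Right, distance from the summit to the nearer (x axis) and farther (y axis) edge in bp for the 347, with the 34 over 1.2 times the width line in red; the farther arm reaches 2195 bp while the nearer one reaches at most 885 bp.

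Tall ungrouped peaks were found on all 19 autosomes and the X chromosome. Chromosome 5 had the most, 37, followed by chromosome 11 with 29, chromosome 2 with 28, chromosome 10 with 25 and chromosome 9 with 23. These 5 chromosomes, picked for their counts, together held 142, or 40.9%. In the same order they held 196, 203, 199, 125 and 132 of the 2678 lower ungrouped peaks. Chromosome 16 had 7 and the X chromosome 6. Lengths were set to the position of each chromosome's last peak in the list. On this measure the density was highest on chromosome 5, at 0.24 per Mb (95% exact Poisson interval 0.17 to 0.34), and on chromosome 11, also at 0.24 per Mb (0.16 to 0.34). The autosomal median was 0.13 per Mb. The lowest autosomal densities were 0.070 per Mb on chromosome 8 (0.032 to 0.13) and 0.071 per Mb on chromosome 16 (0.029 to 0.15).

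The X chromosome had 0.036 tall ungrouped peaks per Mb (95% exact Poisson interval 0.013 to 0.079), which was 0.28 of the autosomal median. Lower ungrouped peaks were also sparse there, at 0.42 per Mb, or 0.40 of their autosomal median. Among the ungrouped peaks of X, 6 of 76 were tall (7.89%, Wilson interval 3.67% to 16.2%), against 11.6% on autosomes (10.5% to 12.8%), and these intervals overlap. Another 5 tall peaks of X were grouped. With both kinds counted, 11 of its 98 peaks were tall (11.2%, 6.38% to 18.99%). This share was within the autosomal range of 8.04% on chromosome 16 to 17.2% on chromosome 19. The 6 tall ungrouped peaks of X had heights of 227, 246, 307, 326, 622 and 775 reads. The tallest, at 100667190 to 100668539, lay 145.95 kb from that of 326 reads at 100521550 to 100522689. Their median enrichment was 215.1, whereas the highest ratio of enrichment to height, which differed between chromosomes, was 0.95 on X and from 1.10 to 1.30 on autosomes.

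The share of ungrouped peaks that were tall ran from 6.21% on chromosome 8 (Wilson interval 3.30% to 11.4%) to 16.7% on chromosome 10 (11.6% to 23.4%). On 17 of 20 chromosomes the interval held the overall 11.5%, the exceptions being chromosomes 5 and 10 above it and chromosome 8 below it. Over the 20 chromosomes, the number of tall and of lower ungrouped peaks went together with Pearson's r = 0.76 and Spearman's rho = 0.74, given as a description. Counted per Mb, Spearman's rho was 0.53. The part of chromosome length in this was not tested. Chromosome 5 combined a high number with a share of 15.9% (11.7% to 21.1%), whereas chromosome 11 had 203 lower peaks and a share of 12.5% (8.85% to 17.4%).

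On chromosome 8, many tall peaks had a close neighbour. It held 10 grouped tall peaks beside its 9 ungrouped ones, and 51 of its 196 peaks were grouped. With both kinds counted, 9.69% of its peaks were tall (6.29% to 14.6%), and the autosomes ran from 8.04% on chromosome 16 to 17.2% on chromosome 19. Chromosome 2 had 17 grouped tall peaks, the most of any chromosome, and chromosome 4 had 12. On chromosomes 6, 7 and 14 there was only 1 each.

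**Figure D4:**
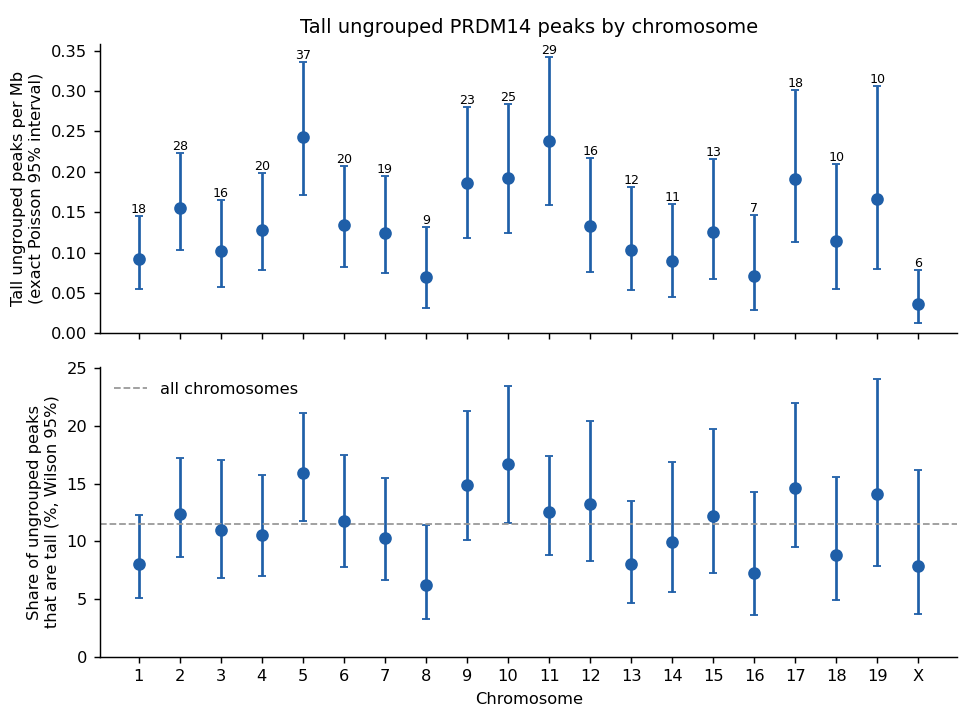
Top, tall ungrouped peaks per Mb for each chromosome with exact Poisson 95% intervals and the number of peaks above each point. Bottom, share of ungrouped peaks with 200 reads or more (%) with Wilson 95% intervals; the dashed line is the 11.5% of all chromosomes, and the intervals of chromosomes 5 and 10 lie just above it and that of chromosome 8 just below it.

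Along the chromosomes, 54 of the 347 tall ungrouped peaks (15.6%, 95% Wilson interval 12.1% to 19.8%) lay in the first 25% of the chromosome and 121 (34.9%, 30.0% to 40.0%) in the last 25%. Of the lower ungrouped peaks, 20.0% (18.5% to 21.5%) lay in the first and 32.4% (30.7% to 34.2%) in the last 25%, and the intervals of tall and lower peaks overlapped at both ends. Coordinates of mouse chromosomes begin at the centromere, where the assembly has a gap, and the length was counted from the first base. In windows of 5 Mb, 223 windows held at least 1 tall ungrouped peak, 83 at least 2 and 26 at least 3. The most, 7, were on chromosome 11 between 95 and 100 Mb, with heights from 231 to 850 reads and a median of 267 reads, beside 13 lower ungrouped peaks. On chromosome 10, 6 lay between 75 and 80 Mb, where the median height was 486.5 reads. There were 3 windows with 5, and their median heights were 668 reads on chromosome 4 between 135 and 140 Mb, 392 reads on chromosome 17 between 25 and 30 Mb, and 219 reads on chromosome 5 between 125 and 130 Mb. These windows were singled out after their counts were seen.

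Tall and lower ungrouped peaks had overlapping intervals for the distance to the nearest peak of any height, but not for the distance to the nearest tall one. The median distance to the nearest other peak of any height was 152 kb for the tall ones (binomial interval of the median 122 to 191 kb) and 147 kb for the lower ones (137 to 159 kb). To the nearest other peak of 200 reads or more, grouped or not, it was 1340 kb for the tall ones (1192 to 1466 kb) and 1693 kb for the lower ones (1575 to 1815 kb). For the 249 ungrouped peaks of 150 to 199 reads it was 1597 kb (1230 to 1908 kb), an interval that overlaps both. Height defined both the tall group and the peaks measured to, so this difference is not a separate finding. A neighbour lay within 50 kb of 85 of the 347 (24.5%, 95% Wilson interval 20.3% to 29.3%) and of 24.1% of the lower peaks (22.5% to 25.7%). No peak within 1 Mb was found for 26 of the 347 (7.49%) and for 7.02% of the lower ones. The nearest peak of a tall ungrouped one was itself tall in 43 cases (12.4%, 9.33% to 16.3%), and that of a lower one in 11.9% (10.7% to 13.2%). The nearest peak had a median height of 87 reads beside tall and 83 reads beside lower peaks.

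From one tall ungrouped peak to the nearest other one, the median distance was 1.51 Mb (quartiles 0.68 and 3.82 Mb). Another was found within 1 Mb for 115 of the 347 (33.1%), within 100 kb for 22 and within 20 kb for 4. The 327 gaps between neighbours on the same chromosome had a median of 3.67 Mb. Of these gaps, 64 were under 1 Mb and 25 were over 20 Mb, and the longest was 47.7 Mb.

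The closest pair lay on chromosome 7, 11.28 kb apart. It joined the wide peak of 601 reads at 56602310 with a peak of 374 reads at 56592700 to 56593819. A second pair on chromosome 7, at 127987970 to 127988979 and 128004220 to 128005179, was 16.46 kb apart, with 240 and 225 reads. The third, on chromosome 5 at 44339170 to 44340209 and 44359540 to 44360549, was 20.68 kb apart. Its peaks had similar heights of 245 and 226 reads and similar widths of 1039 and 1009 bp, but enrichments of 56.5 and 208.5. At the other extreme, the peak of 208 reads at 126740480 to 126741569 on chromosome 8 was 33.4 Mb from the next tall ungrouped peak, although a peak of 63 reads lay 222.24 kb away. The peak of 246 reads at 133571660 to 133572859 on the X chromosome was 32.9 Mb from the next, and the peak of 650 reads and 2129 bp at 4688220 to 4690349 on chromosome 6 was 26.5 Mb from it.

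**Figure D5:**
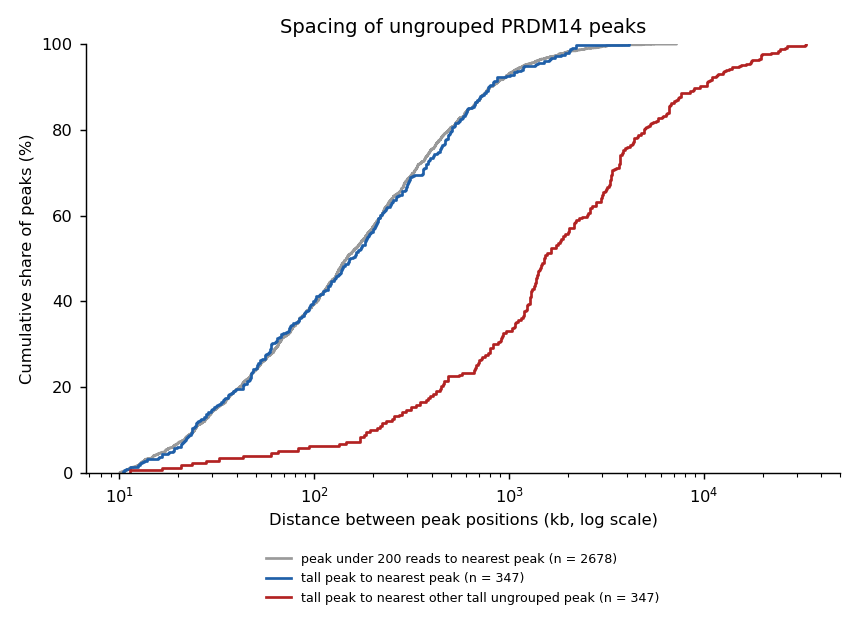
Cumulative share of peaks (y axis, %) by distance between peak positions (x axis, kb, log scale): from tall (blue) and lower (grey) ungrouped peaks to the nearest peak of any height, and from tall ungrouped peaks to the nearest other one (red). The blue and grey curves run close together, with medians of 152 and 147 kb, and the red curve has its median at 1515 kb.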

How the data were processed

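Fixation was in 1% formaldehyde for 5 min, and recovered DNA was sheared to about 150 bp, per the labels' protocols. The deposited table of 1 immunoprecipitated library lists, per the file headers, each peak's interval and summit, its enrichment and width, and the maximum of the immunoprecipitated signal. The authors deposited the height as a read pileup signal, whole numbers without normalization, and the enrichment as a ratio over a control. Positions are on mm9, as the submitters' processing notes name it. Which aligner, peak caller and control were used, and the read depth, is not stated in these sources. The deposited BED list held the intervals of all 347 peaks. Coordinates are printed as deposited; the start lies on a 10 bp grid.

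A peak was called tall at 200 reads and ungrouped when no other peak position lay within 10000 bp. The rule and the peaks to be described (the 10 tallest, 5 at each end of enrichment and of width for height, the 5 most off-centre summits, the 3 closest pairs and the 3 most distant peaks) were chosen with earlier results of these data known. Width for height is the ratio to a least-squares line of log2 width on log2 height over the ungrouped peaks. The chromosome's highest ratio of enrichment to height (relative tolerance 0.0001) was used as its factor. Intervals are Wilson for shares, exact Poisson for counts and binomial order statistics for medians. No test was made, since there is 1 library and the rule used its values. The choice of tall ungrouped peaks, the width slopes and the median distance to the nearest peak were tested on a simulated peak list. The other procedures were not tested in this way. Genes and sequence at the peaks are not given, since the annotation at hand is of another build. Alternatives were heights of 150 and 300 reads, distances of 5, 20 and 50 kb, gaps between intervals, and others given in the closing section. Computations used SciPy 1.17.1, pandas 2.3.3 and NumPy 2.4.6 under Python 3.11.15, and plots matplotlib 3.10.9.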

Additional observations from a re-analysis of the deposited data

How the results depend on the processing

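The distance that makes a peak ungrouped mattered little: with 5, 20 or 50 kb, or with gaps between intervals, 262 to 387 peaks were tall and ungrouped, and of the values recomputed only the median density moved beyond its interval, to 0.098 per Mb at 50 kb. The height limit moved most values, by construction. At 150 reads, 596 peaks (19.7% of ungrouped ones) qualified, with a median of 0.23 and, on the X chromosome, 0.10 per Mb. Median widths were then 1089 bp in these and 759 bp in lower peaks, the slope in lower peaks was 0.45, and the nearest other tall ungrouped peak was 997.02 kb away in the median. At 300 reads, 164 peaks (5.42%) qualified, with a median of 0.064 per Mb, widths of 1289 and 799 bp, a slope of 0.38 in lower peaks and a median distance of 4414.06 kb. The slope in tall peaks stayed under that in lower ones in every alternative, from 0.23 to 0.28 by lines, and a Theil-Sen slope in lower peaks was 0.43. Rank correlations in place of lines were 0.53 and 0.85. Leaving out peaks narrower than 500 bp (widths and summits), leaving out the X chromosome (spacing) and counting length from the first peak (density) moved no value beyond its interval. The relative summit position kept within its interval in each alternative run. Ranked by enrichment, or by enrichment divided by the chromosome's factor, 2 of the 10 tallest were among the first 10. No paired analysis was possible because no group had more than 1 library, and no replicate could be left out.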
